A study of Mus musculus with 8 samples.

Results

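The genes described are the EGF family ligands Egf, Tgfa, Areg, Ereg, Btc, Hbegf and Epgn and the ErbB receptors Egfr, Erbb2 and Erbb3, read from Affymetrix arrays of 8 mouse colonic tumors with 1 array per tumor sample. A gene was taken where a probe set carried its symbol and no other, which gave 6 ligands and 3 receptors, 9 of the 10 listed genes among 19938 genes in all. No probe set carried the symbol Areg, so amphiregulin was not analysed here. Each of the 9 genes had 1 such probe set. A further probe set that named Erbb2 together with another gene, Sympk, was left out under this rule.

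The tumors formed 3 groups. The K-rasG12D AOM group (3 arrays) held distal colon tumors of K-rasG12Dint mice induced by azoxymethane (AOM), a colon carcinogen. The LSL AOM group (2 arrays) held distal colon tumors, also AOM induced, of LSL-K-rasG12D/+ mice, where LSL stands for a lox-stop-lox cassette, which blocks expression of an allele unless a recombinase cuts it out. The serrated group (3 arrays) held proximal colon serrated tumors of K-rasG12Dint mice that were also Ink4a/Arf-/-, with no AOM in the labels. By genotype label all groups carried a K-rasG12D allele, which in LSL AOM mice stays silent unless the cassette is removed. Array titles call the LSL AOM tumors wt and the K-rasG12D AOM tumors viras, without explaining either word. Expression of the allele in LSL AOM tumors was not tested, so K-rasG12D is not shown to be active in all tumors. The labels used here name no promoter or cell type for the recombinase, no age and no strain. Colon segment, tumor type, AOM and Ink4a/Arf genotype changed together between serrated and AOM tumors and cannot be told apart. No normal colon was measured, so higher and lower refer to the other tumors.

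EGF family ligands are made as membrane proteins, cut free by proteases of the ADAM family, and bind ErbB receptors, which pair up and phosphorylate each other. Egfr binds all 7 ligands listed, Erbb2 has no ligand of its own and serves as a partner, and Erbb3 binds neuregulins and signals through its partners because its own kinase is weak. The receptors feed the Ras and PI3K pathways, and in intestinal epithelium Egfr signalling is known for driving growth of crypt cells and repair.

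Values are log2 signals, so a difference of 1 is a doubling, and they are given as mean ± SD with n arrays. Tests are those of limma across all genes, with Benjamini-Hochberg adjusted p-values, and a gene is said to rise or fall where the adjusted p is under 0.05. Differences are given with their standard error (SE), and intervals are 95% confidence intervals of the single gene, not adjusted for the number of genes. Array titles carry a different number each, which the labels do not explain. Nothing in the labels says that the arrays of a group stand for separate animals. The p-values thus rest on the spread among these arrays, which may be partly technical. All AOM stands for the average of the means of both AOM groups.

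The epithelial genes Epcam and Cdh1 ran from 10.1 to 10.5 and from 9.86 to 10.4 over the 8 arrays, and the colonic carbonic anhydrase Car1 from 10.4 to 12.7. Cdx2, an intestinal transcription factor, ran from 4.50 to 5.73 on AOM arrays and from 7.17 to 8.26 on serrated arrays. Cdkn2a, the gene of the Ink4a/Arf locus, ran from 3.37 to 4.01 on serrated arrays, 3.59 to 4.28 on LSL AOM arrays and 5.39 to 6.21 on K-rasG12D AOM arrays. Whether its probes lie in the deleted part is not known, so this does not check the genotype labels. Serrated replicate 1 stood apart: its signals had an SD of 1.77 over genes and a lower quartile of 3.00, while the remaining 7 arrays had SDs from 2.00 to 2.13 and lower quartiles from 2.50 to 2.75.

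Of the 3 receptors 2 rose in serrated tumors, and 0 of the 6 ligands passed in either direction. Against all AOM tumors, Erbb3 and Egfr rose by 1.16 and 0.75, or 2.23-fold and 1.68-fold. In this comparison 2 of the 9 family genes rose and 0 fell, beside 3.62% of all genes that rose, 5.76% that fell and 9.38% that did either. Differences were positive in 5 of the 6 ligands, and Ereg had the largest of the family, -1.69. The median difference was 0.30 over the 9 genes, 0.75 over the 3 receptors, 0.30 over the 6 ligands and 0.04 over all genes.

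**Figure D1:**
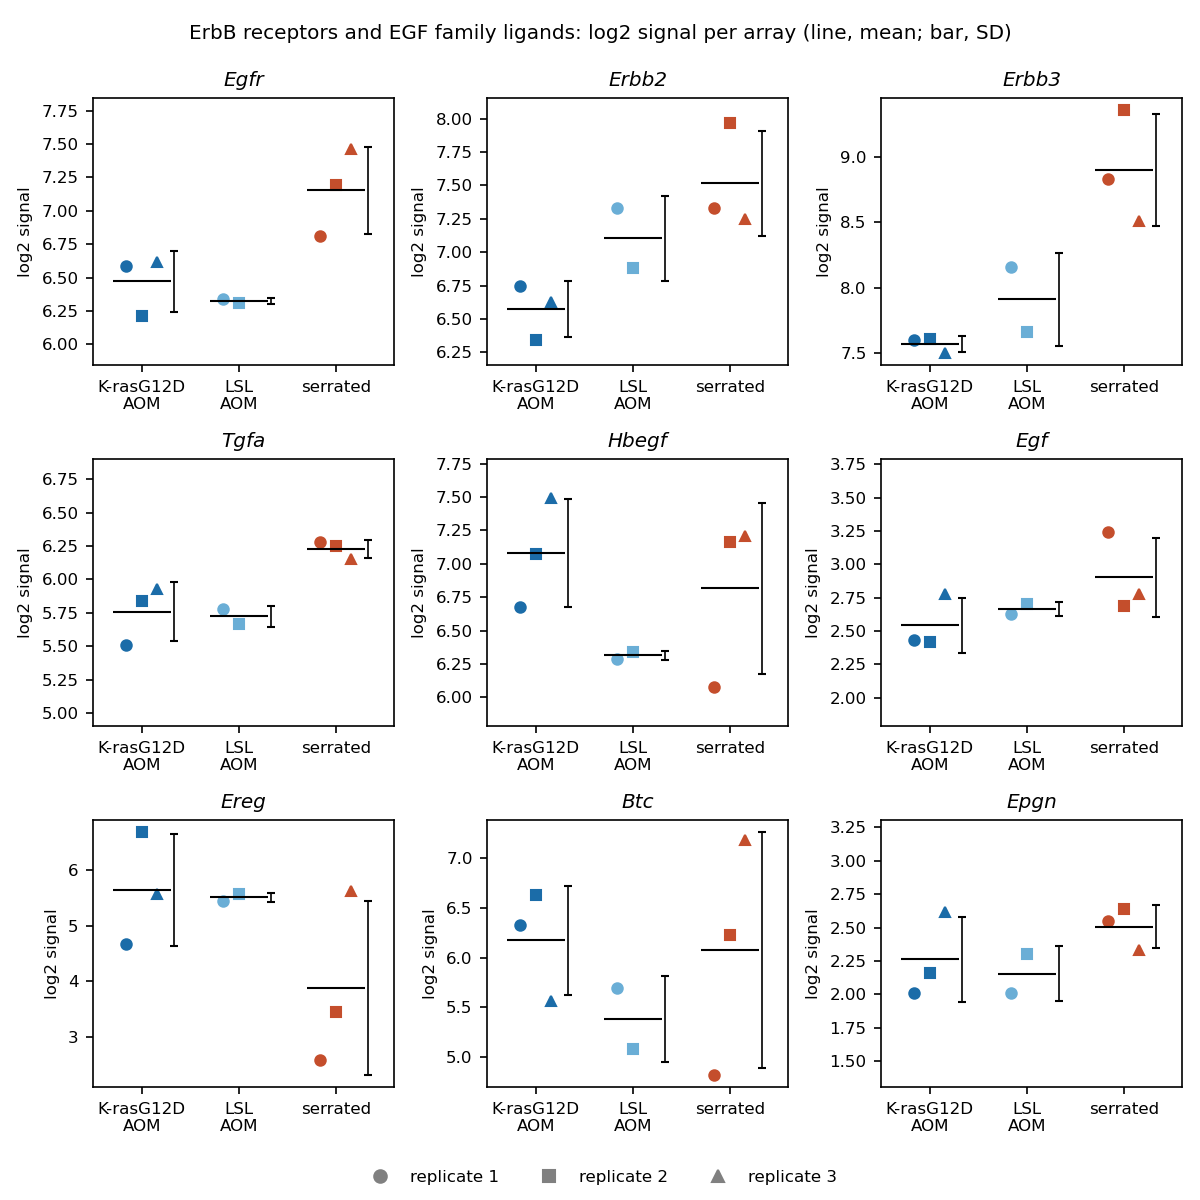
Log2 signal (vertical axis) of the 9 measured genes on each array, by tumor group; symbols mark replicates, lines group means and bars SD. Erbb3, Egfr and Tgfa on the 3 serrated arrays lie above all 5 AOM arrays, whereas Ereg, Btc and Hbegf are spread widely among the serrated arrays.

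Erbb3, the receptor of neuregulins, stood at 8.83, 9.36 and 8.51 on the serrated arrays. It stood at 7.60, 7.61 and 7.50 on the K-rasG12D AOM arrays and at 8.16 and 7.66 on the LSL AOM arrays. Every serrated array lay above every AOM array, and the LSL AOM arrays both lay above the K-rasG12D AOM arrays. Mean Erbb3 was 8.90 ± 0.43 (SD, n = 3) in serrated, 7.57 ± 0.06 (SD, n = 3) in K-rasG12D AOM and 7.91 ± 0.36 (SD, n = 2) in LSL AOM tumors. Serrated tumors exceeded all AOM tumors by 1.16 ± 0.22 (SE; interval 0.67 to 1.64; limma adjusted p = 0.0138). The call was lost without serrated replicate 2 (difference 0.93, adjusted p = 0.0557) or LSL AOM replicate 2 (1.03, adjusted p = 0.0537).

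Egfr, the receptor that binds every ligand of the family, stood at 6.81, 7.19 and 7.46 on the serrated arrays. The K-rasG12D AOM arrays read 6.59, 6.21 and 6.62, and the LSL AOM arrays 6.34 and 6.31. The serrated arrays again lay above all AOM arrays, with a narrow gap between serrated replicate 1 and K-rasG12D AOM replicate 3. Mean Egfr was 7.15 ± 0.33 (SD, n = 3) in serrated, 6.47 ± 0.22 (SD, n = 3) in K-rasG12D AOM and 6.33 ± 0.02 (SD, n = 2) in LSL AOM tumors. The difference from all AOM tumors was 0.75 ± 0.19 (SE; interval 0.33 to 1.18; limma adjusted p = 0.0398). The call was kept without serrated replicate 1 (0.93, adjusted p = 0.0119) and lost without any of the other 7 arrays, with differences of 0.60 to 0.79 and adjusted p of 0.0565 (serrated replicate 3) to 0.147 (serrated replicate 2). It was also lost with trended robust variances (adjusted p = 0.0512).

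Erbb2, the receptor without a ligand of its own, stood at 7.33, 7.97 and 7.25 on the serrated arrays. It read 6.75, 6.34 and 6.63 on the K-rasG12D AOM arrays and 7.33 and 6.88 on the LSL AOM arrays. Serrated and K-rasG12D AOM arrays did not overlap, whereas LSL AOM replicate 1 lay within the serrated range. The difference from all AOM tumors was 0.68 ± 0.22 (SE; interval 0.19 to 1.17), which did not pass (limma adjusted p = 0.0863). It passed without serrated replicate 3 (0.81, adjusted p = 0.0428).

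Of the 10 listed genes 7 matched the RefSeq promoter table. Erbb3, Ereg and Hbegf had no entry, so the receptor with the larger rise, Erbb3, is not shown. For Egfr and Erbb2, the 250 bases before the RefSeq transcription start (GRCm38.p6, sense strand) are given. Egfr rose and its partner Erbb2 did not pass, but their differences from all AOM tumors were close, 0.75 and 0.68. The genes were not tested against each other. Capitals mark GC boxes (GGGCGG on either strand), a motif bound by Sp1-type factors.
Egfr, chr11:16751953-16752202, + strand: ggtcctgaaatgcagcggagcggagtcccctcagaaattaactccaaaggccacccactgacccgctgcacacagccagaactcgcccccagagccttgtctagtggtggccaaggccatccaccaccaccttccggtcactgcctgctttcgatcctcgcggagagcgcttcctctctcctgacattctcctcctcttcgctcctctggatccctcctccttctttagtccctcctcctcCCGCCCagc
Erbb2, chr11:98412234-98412483, + strand: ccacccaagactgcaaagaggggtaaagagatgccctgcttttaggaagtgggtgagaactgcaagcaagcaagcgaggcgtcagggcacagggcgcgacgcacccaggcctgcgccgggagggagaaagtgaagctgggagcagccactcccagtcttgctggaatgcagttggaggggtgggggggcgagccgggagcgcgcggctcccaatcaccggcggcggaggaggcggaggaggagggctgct
The Egfr window held 1 GC box and the Erbb2 window 0, where 32.7% of 32851 RefSeq promoter windows of this length held at least 1. Their GC content was 60.8% and 66.0%, against a median of 52.4% over all windows. Neither held TATAAA (12.4% of windows), TGANTCA, the AP-1 site (6.7%), TGACGTCA, the cyclic AMP response element (1.5%), or CTTTGAT, a TCF site (3.2%), on either strand. The letters of these 5 motifs are not contained in one another. Of the ligand windows not shown, that of Epgn held 1 TATAAA, that of Areg 1 GC box, 1 TATAAA and 1 TGACGTCA, and those of Btc and Egf 0 of the 5. A match or its absence describes these letters only.

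Tgfa, transforming growth factor alpha, was the ligand with the smallest spread. It stood at 6.28, 6.25 and 6.15 on the serrated arrays, at 5.51, 5.84 and 5.93 on the K-rasG12D AOM arrays and at 5.78 and 5.67 on the LSL AOM arrays. All serrated arrays lay above all AOM arrays. Mean Tgfa was 6.22 ± 0.06 (SD, n = 3) in serrated, 5.76 ± 0.22 (SD, n = 3) in K-rasG12D AOM and 5.73 ± 0.07 (SD, n = 2) in LSL AOM tumors. The difference from all AOM tumors, 0.48 ± 0.15 (SE; interval 0.14 to 0.82), did not pass (limma adjusted p = 0.0798).

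With Erbb3 and Egfr, Tgfa made 3 of the 9 genes whose serrated arrays all lay above the AOM arrays, an order that 7.24% of all genes had. The reverse order, held by 8.93% of all genes, was met in 0 of the 9. The same window of the Tgfa promoter is shown because this ligand had that separation.
Tgfa, chr6:86194972-86195221, + strand: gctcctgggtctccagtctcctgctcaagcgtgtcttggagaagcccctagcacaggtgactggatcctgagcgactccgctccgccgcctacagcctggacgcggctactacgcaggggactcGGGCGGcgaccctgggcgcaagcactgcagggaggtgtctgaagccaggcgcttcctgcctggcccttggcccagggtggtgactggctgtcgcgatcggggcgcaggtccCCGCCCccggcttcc
It held 2 GC boxes, 1 on each strand, 0 matches to the other 4 motifs, and a GC content of 69.2%.

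Ereg, epiregulin, a ligand of Egfr and Erbb4, varied most. On the serrated arrays it stood at 2.58, 3.44 and 5.62, on the K-rasG12D AOM arrays at 4.66, 6.68 and 5.57, and on the LSL AOM arrays at 5.45 and 5.56. Serrated replicates 1 and 2 lay below every AOM array, and serrated replicate 3 lay within the AOM range. Among all genes of their arrays, the values of replicates 1 and 2 stood at percentiles 16.8 and 37.9. Signals as low as that of replicate 1 separate little from background, so the size of the difference is uncertain. Mean Ereg was 3.88 ± 1.57 (SD, n = 3) in serrated, 5.63 ± 1.01 (SD, n = 3) in K-rasG12D AOM and 5.51 ± 0.07 (SD, n = 2) in LSL AOM tumors. The difference from all AOM tumors was -1.69 ± 0.66 (SE; interval -3.20 to -0.18) and did not pass (limma adjusted p = 0.155). Serrated replicate 3 decided this: without it the difference was -2.56 and passed (adjusted p = 0.00926), and without serrated replicate 1 it was -1.04 (adjusted p = 0.402). Serrated replicate 3 also had the highest fibroblast, macrophage and mast cell marker means of the serrated group, 7.38, 5.38 and 6.20. Replicates 1 and 2 had 6.63 and 6.30, 4.83 and 4.86, and 5.18 and 5.24. Its Paneth cell, smooth muscle and colon marker means, 3.82, 5.48 and 8.83, were the lowest of the group. The part of any of these cells in the Ereg level was not tested.

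Btc, betacellulin, which also binds Egfr and Erbb4, stood at 4.82, 6.23 and 7.18 on the serrated arrays, 6.33, 6.63 and 5.56 on the K-rasG12D AOM arrays and 5.69 and 5.08 on the LSL AOM arrays. The serrated arrays held both the lowest and the highest value of the series. The difference from all AOM tumors was 0.30 ± 0.49 (SE; interval -0.80 to 1.40; limma adjusted p = 0.730), and its sign turned to -0.25 without serrated replicate 3.

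Ereg and Btc had within-group SDs of 1.18 and 0.85, above those of 99.4% and 98.4% of all genes, whose median was 0.27. Both were lowest on serrated replicate 1 and highest on serrated replicate 3 within the serrated group. Hbegf and Egfr had this order too, and the other measured genes, Epgn among them, did not. In the RefSeq annotation of the mouse (GRCm38.p6), Epgn, Ereg, Areg and Btc lie in this order on chromosome 5 with 0 protein-coding genes between them. The other measured ligands and the receptors lie elsewhere, with Egfr and Erbb2 both on chromosome 11.

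Hbegf, the heparin-binding ligand, stood at 6.08, 7.16 and 7.21 on the serrated arrays, at 6.68, 7.07 and 7.49 on the K-rasG12D AOM arrays and at 6.29 and 6.34 on the LSL AOM arrays. Serrated replicate 1 was the lowest array of the series, and the other serrated arrays lay within the K-rasG12D AOM range. The difference from all AOM tumors was 0.12 ± 0.29 (SE; interval -0.55 to 0.78; limma adjusted p = 0.831). Leaving out serrated replicate 1 moved it to 0.49 (adjusted p = 0.218), and leaving out serrated replicate 2 or 3 turned its sign (-0.05 and -0.08).

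Egf, the founding ligand, and Epgn, epigen, were dim. Egf stood at 3.24, 2.69 and 2.78 on the serrated arrays and from 2.42 to 2.78 over the 5 AOM arrays. Epgn stood at 2.55, 2.64 and 2.33 on the serrated arrays and from 2.01 to 2.62 over the AOM arrays. Both lay in the lower part of each array, with Egf between percentiles 20.8 and 30.0 of all genes and Epgn between 12.4 and 23.3, where RMA signals separate little from background. The differences were 0.30 ± 0.18 (SE; limma adjusted p = 0.338) and 0.29 ± 0.18 (SE; limma adjusted p = 0.360). For Egf the high value was that of serrated replicate 1, the array whose lower quartile was raised, and without it the difference was 0.13.

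**Figure D2:**
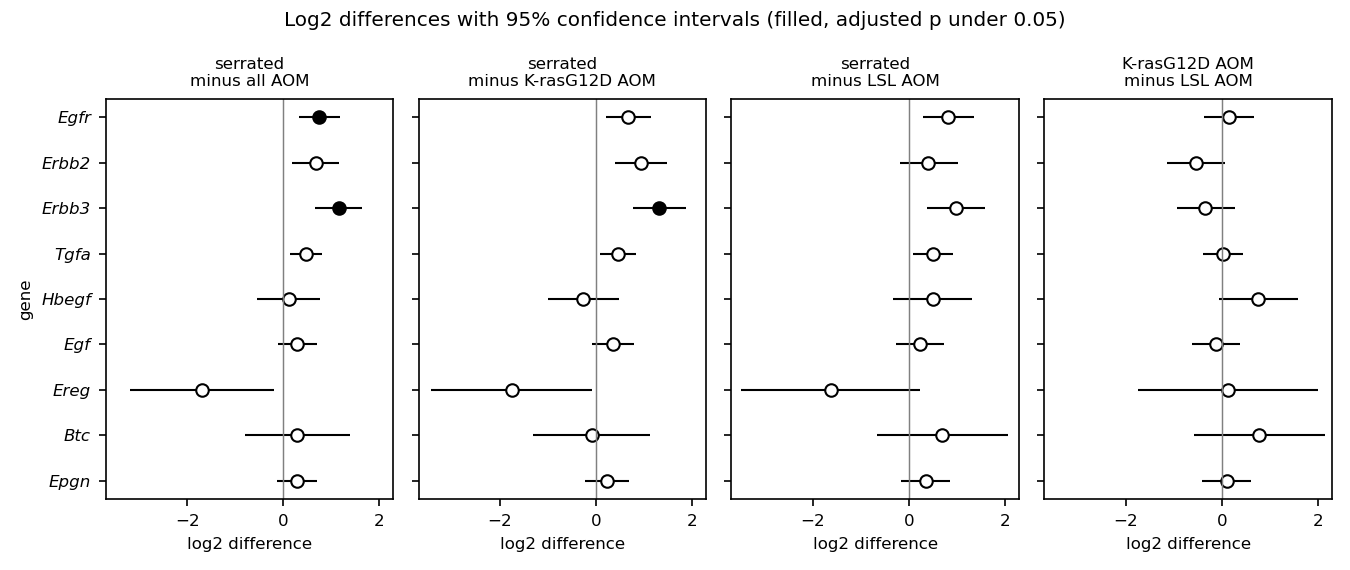
Log2 differences (horizontal axis) of the 9 genes in the 4 comparisons with 95% confidence intervals; filled circles have an adjusted p under 0.05. Erbb3 is filled in the first 2 panels and Egfr in the first, and intervals of Ereg and Btc are the widest.

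Set against the K-rasG12D AOM tumors alone, Erbb3 was the 1 family gene that rose, by 1.32 ± 0.24 (SE; interval 0.78 to 1.87; limma adjusted p = 0.0152), while 2.46% of all genes rose and 3.99% fell, 6.45% together. Erbb2 differed by 0.94 ± 0.24 (SE; adjusted p = 0.0524), Egfr by 0.68 ± 0.21 (SE; adjusted p = 0.0913) and Tgfa by 0.46 ± 0.17 (SE; adjusted p = 0.142) in limma, and none of these passed. All 3 receptors and Tgfa, 4 of the 9 genes, had serrated arrays above all K-rasG12D AOM arrays, as had 12.0% of all genes, and 0 of the 9 had the reverse order, which 13.9% of all genes had. The Erbb3 call was lost without K-rasG12D AOM replicate 1, 2 or 3 or serrated replicate 2, with adjusted p of 0.0583, 0.0670, 0.0534 and 0.0524 and differences of 1.10 to 1.35. Conversely, Egfr and Erbb2 passed without serrated replicate 1 (0.85 and 1.04, adjusted p = 0.0277 and 0.0481), and Erbb2 and Ereg without serrated replicate 3 (1.08 and -2.63, adjusted p = 0.0245 and 0.0134).

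Against the LSL AOM tumors alone, 0 of the 9 genes passed in limma, and 3 had an unadjusted p under 0.05, Egfr, Erbb3 and Tgfa. So had 4044 of all 19938 genes. Of all genes, 2.31% rose and 3.40% fell, 5.71% together. Erbb3 differed by 0.99 ± 0.27 (SE; interval 0.38 to 1.59; adjusted p = 0.0694) and Egfr by 0.82 ± 0.23 (SE; interval 0.30 to 1.35; adjusted p = 0.0782). Erbb2 differed by 0.41 ± 0.27 (SE; interval -0.19 to 1.02; adjusted p = 0.440). Serrated arrays lay above both LSL AOM arrays for 4 of the 9 genes, Tgfa, Epgn, Egfr and Erbb3, beside 15.6% of all genes, and below both for 0 of the 9, beside 17.4%. Egfr passed without serrated replicate 1 (1.0, adjusted p = 0.0203), and Erbb3 and Ereg passed without serrated replicate 3 (1.18 and -2.50, adjusted p = 0.0201 and 0.0262). These comparisons share their serrated arrays with each other and with the first.

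Between the AOM groups, 0 of the 9 genes and 0 of all 19938 genes passed in limma, and the counts at an unadjusted p under 0.05 were 0 and 1666. Hbegf had a K-rasG12D AOM mean of 7.08 ± 0.41 (SD, n = 3) and an LSL AOM mean of 6.32 ± 0.04 (SD, n = 2). Its difference was 0.76 ± 0.36 (SE; interval -0.06 to 1.59; limma adjusted p = 0.650), with every K-rasG12D AOM array above both LSL AOM arrays. Erbb2 lay the other way, at 6.57 ± 0.21 (SD, n = 3) and 7.11 ± 0.32 (SD, n = 2), a difference of -0.53 ± 0.27 (SE; interval -1.14 to 0.07; limma adjusted p = 0.682). Erbb3 was also lower on all K-rasG12D AOM arrays, by -0.34 ± 0.27 (SE; limma adjusted p = 0.876). Separation in these directions was common among all genes, at 16.4% with K-rasG12D AOM above and 15.7% with it below, so 1 and 2 of the 9 genes are near that background. The intervals of Btc (-0.58 to 2.15) and Ereg (-1.74 to 2.00) were wide, and the groups are not shown to be alike in these genes.

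The order of group means was serrated, LSL AOM, K-rasG12D AOM for Erbb3 and Erbb2, and serrated, K-rasG12D AOM, LSL AOM for Egfr and Tgfa. In these 4 genes the step between the AOM groups did not pass, and neither did the step from serrated tumors to the nearer AOM group. For Hbegf and Btc the K-rasG12D AOM mean was the highest, at 7.08 and 6.17 against 6.82 and 6.08 in serrated tumors, and no neighbours in the order passed a test.

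Other genes of the pathway, 47 in 5 lists, were all measured. Serrated against all AOM tumors, 4 rose, 3 fell and 40 did not pass, with a median difference of -0.03, beside 3.62% and 5.76% of all genes. Those that passed were Muc4, Erbin, Lrig3, Eps8, Plcg1, Rhbdf2 and Timp3.

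Of 4 receptor partners, Muc4 and Erbin rose. Muc4, a membrane mucin that binds Erbb2, stood at 6.70, 7.05 and 5.99 on the serrated arrays and from 4.17 to 5.41 on the AOM arrays, and rose by 1.89 ± 0.29 (SE; limma adjusted p = 0.00624). Erbin, a scaffold protein that binds Erbb2, stood at 9.56, 9.71 and 9.32 against 8.13 to 8.76 and rose by 1.09 ± 0.17 (SE; limma adjusted p = 0.00699). Neither gene's serrated arrays overlapped the AOM arrays. The other two, Cd9, a tetraspanin that associates with the Hbegf precursor, and the adhesion receptor Cd44, differed by -0.61 (limma adjusted p = 0.0563) and -1.32 (limma adjusted p = 0.117). Both are named after their values were seen.

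Of 11 genes listed as negative regulators, Lrig3, a leucine-rich repeat membrane protein of the Lrig family, rose and 10 did not pass. The list name is a grouping only, and whether Lrig3 restrains ErbB receptors was not tested. Lrig3 stood at 6.13, 5.78 and 5.69 on the serrated arrays and from 4.20 to 4.95 on the AOM arrays, a rise of 1.25 ± 0.21 (SE; limma adjusted p = 0.00834). Muc4, Erbin and Lrig3 kept their calls in this comparison under all 15 alternatives tried. Against each AOM group alone, these 3 also rose, by 1.61, 0.97 and 1.31 for K-rasG12D AOM (limma adjusted p = 0.0242, 0.0224 and 0.0144) and by 2.17, 1.20 and 1.19 for LSL AOM (0.0132, 0.0171 and 0.0324). Those calls were lost for each gene without 2 to 4 of the single arrays (adjusted p of 0.0543 to 0.226), and those of Erbin and Lrig3 for LSL AOM also with only the groups compared in the fit (0.0716 and 0.0754).

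Of 17 adaptors and proximal effectors, 1 rose, 1 fell and 15 did not pass. Eps8, an Egfr kinase substrate that acts on actin, rose by 0.79 ± 0.17 (SE; limma adjusted p = 0.0240), from 7.25 to 8.43 on the AOM arrays to 8.44, 8.71 and 8.78. The gap to K-rasG12D AOM replicate 1 was small, and the call was lost without K-rasG12D AOM replicate 2 or 3, serrated replicate 2 or LSL AOM replicate 1 (adjusted p of 0.0513 to 0.105) and with the AOM arrays as 1 group (0.139). Plcg1, the phospholipase recruited by active receptors, fell by 1.11 ± 0.19 (SE; limma adjusted p = 0.0102), to 5.75, 5.38 and 5.55 from 6.23 to 6.98. Its call was lost without serrated replicate 2 (adjusted p = 0.0604). Plcg1 also fell against K-rasG12D AOM (-1.01, limma adjusted p = 0.0290) and LSL AOM tumors (-1.21, 0.0240), and Eps8 rose against LSL AOM tumors (1.20, 0.0162). These 3 calls were lost without serrated replicate 2 (adjusted p = 0.120, 0.0890 and 0.0626) and without at least 2 arrays of the AOM group compared (0.0613 to 0.198), and both Plcg1 calls after quantile normalization (0.0830 and 0.0513). The Plcg1 call for K-rasG12D AOM was also lost after median centring (0.0525), and the Plcg1 and Eps8 calls for LSL AOM with only the groups compared in the fit (adjusted p = 0.0691 and 0.0693).

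Of 10 genes of ligand shedding and transport, 2 fell and 8 did not pass, with a median of -0.37. Timp3, an inhibitor of ADAM proteases, fell by 1.61 ± 0.32 (SE; limma adjusted p = 0.0186), to 5.19, 5.10 and 6.56 from 6.92 to 7.41. Rhbdf2, which carries Adam17 to the cell surface, fell by 0.65 ± 0.16 (SE; limma adjusted p = 0.0395), to 5.20, 5.25 and 5.64 from 5.69 to 6.24. In both genes serrated replicate 3 lay nearest to the AOM arrays. Timp3 lost its call without serrated replicate 2 or either LSL AOM array (adjusted p of 0.0598 to 0.0890), and Rhbdf2 on omission of each array other than serrated replicate 3 (0.0557 to 0.160), after median centring (0.0687), with trended robust variances (0.0639) and with the AOM arrays as 1 group (0.0549). Timp3 also fell against K-rasG12D AOM (-1.54, limma adjusted p = 0.0399) and LSL AOM tumors (-1.67, 0.0467), and both calls were lost on omission of each array other than serrated replicate 3 (0.0717 to 0.258), after median centring (0.0564 and 0.0558) and with only the groups compared in the fit (0.0717 and 0.135). The 5 ADAM proteases of the list did not pass in limma. Adam9 differed by 0.90 (adjusted p = 0.0748), Adam12 by -0.63 (0.0804), Adam17 by -0.45 (0.385), Adam10 by -0.34 (0.285) and Adam15 by -0.16 (0.720). The rhomboid protease Rhbdl2 differed by 0.71 (limma adjusted p = 0.0659) and did not pass either. These 6 are named after their values were seen.

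The other ErbB ligands and the fourth receptor, 5 genes, did not pass in any comparison by limma, and 2 had an unadjusted p under 0.05 for serrated against all AOM tumors. These were the neuregulins Nrg1 (-0.73, limma adjusted p = 0.151) and Nrg4 (0.46, limma adjusted p = 0.107), ligands of Erbb3 or Erbb4. In that comparison 4933 of all 19938 genes had an unadjusted p under 0.05 in limma. Nrg4 was dim, from 1.86 to 2.67 over all arrays, as was Erbb4, from 2.06 to 2.79. Between the AOM groups 0 of the 47 genes passed in limma, and 3 had an unadjusted p under 0.05, beside 1666 of all 19938 genes.

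**Figure D3:**
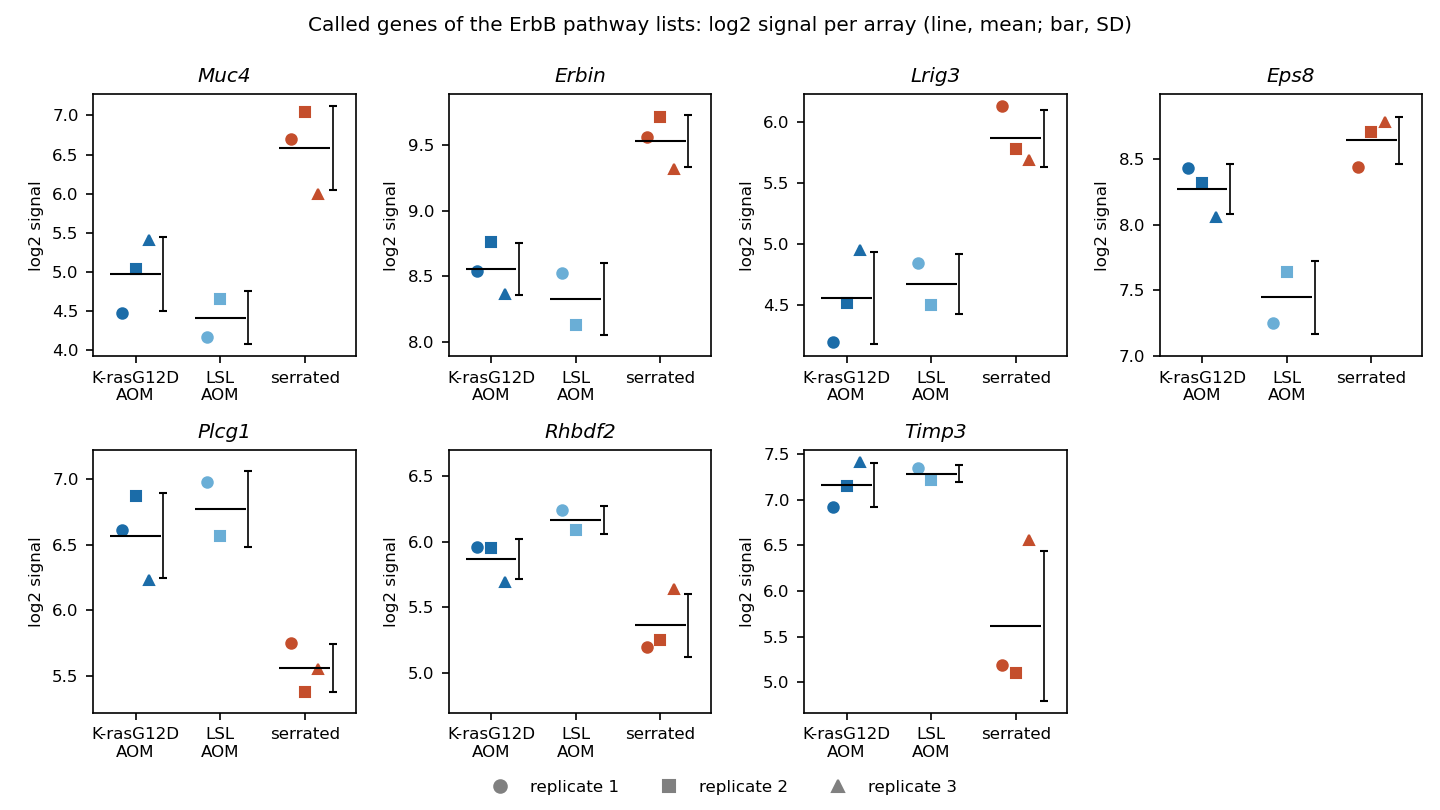
Log2 signal (vertical axis) per array of the 7 other pathway genes that passed for serrated against all AOM tumors, by tumor group; lines are means and bars SD. Muc4, Erbin, Lrig3 and Eps8 are higher on the serrated arrays and Plcg1, Rhbdf2 and Timp3 lower, with no overlap in any of the 7. These genes are shown because they passed in the same comparison, so their separation adds no support. Of all 47 pathway genes, 6 lay above and 8 below without overlap, beside 7.24% and 8.93% of all genes.

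Some cell type markers also differed between serrated and AOM tumors. The 8 epithelial markers averaged 10.24 to 10.46 on serrated and 9.71 to 9.97 on AOM arrays, and 1 of them, Krt20, a keratin of mature surface cells, rose (2.53, limma adjusted p = 0.0162), while Epcam differed by 0.05 (limma adjusted p = 0.863). The separation of this list rested on Krt20: the mean of the other 7 markers was 10.24 to 10.51 on serrated and 10.02 to 10.34 on AOM arrays, which overlap. The 7 fibroblast markers averaged 6.30 to 7.38 and 7.25 to 8.40, with 3 falling, and the 6 macrophage markers 4.83 to 5.38 and 5.72 to 6.44, with 5 falling. The 5 stomach surface markers averaged 6.85 to 10.53 on serrated and 3.07 to 3.54 on AOM arrays, and all 5 rose. Their part in the higher Erbb3 and Egfr was not tested, and in such bulk samples fewer cells of a type and less RNA per cell cannot be told apart.

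Colon markers were higher on the serrated arrays too. Of the 4 analysed here 3 rose, with means of 8.83 to 8.92 on serrated and 6.22 to 7.58 on AOM arrays. The 5 markers of Paneth cells, crypt cells known as a source of Egf, averaged 3.82 to 4.97 and 5.0 to 7.62, with 2 falling. Those were Mmp7 (-4.38) and Lyz1 (-3.50), whereas Defa24 (-1.23), Ang4 (-0.07) and Itln1 (0.05) did not pass. Egf itself differed by 0.30 and did not pass either, so the list shows no loss of an Egf source. Smooth muscle (5.48 to 6.68 and 5.12 to 6.30), mast cell (5.18 to 6.20 and 3.49 to 6.47) and T cell lists (3.62 to 4.04 and 3.11 to 4.02) overlapped, with 0 of 6, 5 and 5 genes passing in limma and 1 in each list at an unadjusted p under 0.05. Over all genes, 4933 of 19938 had such an unadjusted p for serrated against all AOM tumors.

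**Figure D4:**
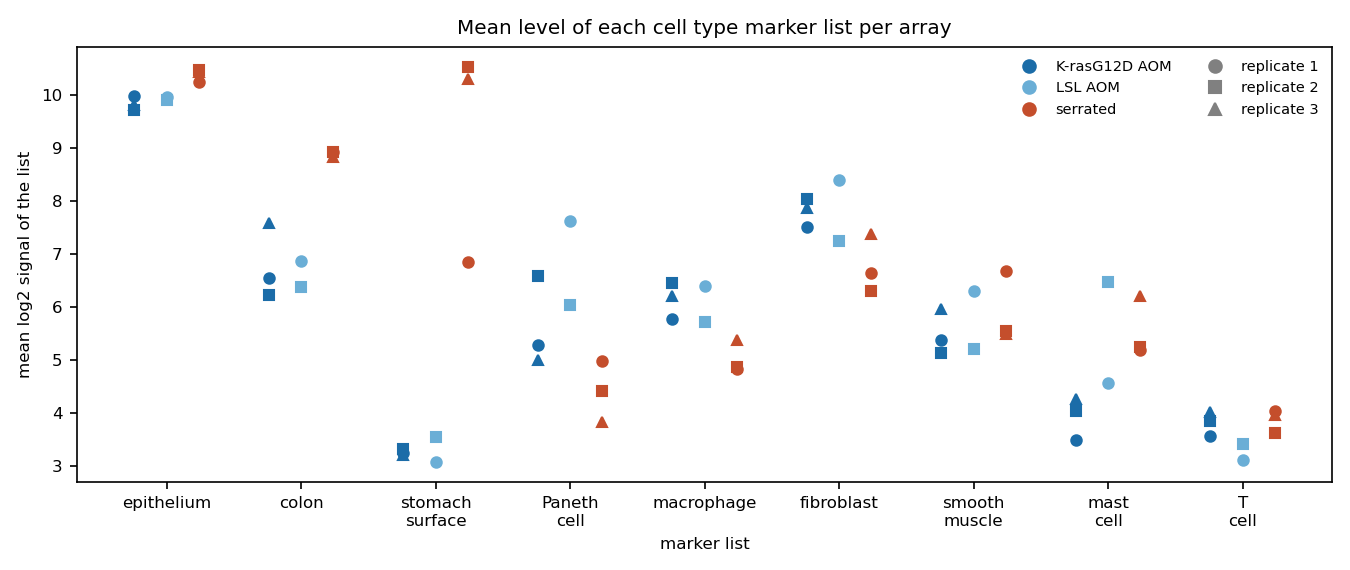
Mean log2 signal (vertical axis) of each cell type marker list per array, coloured by tumor group, with symbols for replicates. Stomach surface and colon means are higher on serrated arrays, macrophage means are lower, and serrated replicate 1 lies well below the other serrated arrays in the stomach list.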

How the data were processed

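Total RNA of 8 colonic tumors was hybridised as biotin-labelled target, per the labels' protocols. The authors deposited log2 signals of 35557 probe sets, and the submitters' processing notes name GCOS and RMA, with no version or setting in the sources used here. Probe annotation gave 1 symbol for 21789 probe sets, of which 21698 matched the RefSeq table. The 1621 with several symbols and 12147 with none were not tested. The probe set of highest mean was kept per gene, leaving 19938 genes, with no filter on dim genes and no further scaling.

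One limma fit (version 3.58.1, R 4.3.3) of 3 group means over 8 arrays, with 5 residual degrees of freedom, gave all 4 contrasts. The fit was tested on simulated data. The number of arrays limits the precision. The labels name no batch.

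The family genes and lists were chosen with earlier results of these data known. All family genes are named. From the pathway lists, called genes are named, up to 4 per list in the first contrast and 2 in others. Alternatives were quantile normalization, median centring, leaving out the dimmest 40% of genes, trended robust variances, array weights (gene by gene method, since the default did not converge), averaged probe sets, fits of only the groups compared, and each array left out.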

Additional observations from a re-analysis of the deposited data

How the results depend on the processing

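No paired analysis was possible because the labels give no replicate numbers shared between groups. Calls among the 9 genes were few and moved with the setting. Against all AOM tumors 2 were called, 1 with trended robust variances, 5 with array weights (Egfr, Erbb2, Erbb3, Ereg and Tgfa; weights from 0.24 to 3.15), and 0 to 3 with single arrays left out. The count was 3 (Erbb2, Erbb3 and Ereg) without serrated replicate 3, 0 without serrated replicate 2 or LSL AOM replicate 2, and 1, Erbb3, without LSL AOM replicate 1 or any 1 K-rasG12D AOM array. Against K-rasG12D AOM tumors 1 was called, 3 after quantile normalization, 2 after median centring, 2 without the dimmest 40% of genes, 5 with array weights, and 0 to 3 with arrays left out. Against LSL AOM tumors 0 were called, 1 after quantile normalization, 2 with array weights and 0 to 2 with arrays left out. With 1 LSL AOM array left out, the remaining array was assumed to vary like the other groups. The AOM groups gave 0 under each setting that was run. In the fit with array weights, serrated replicates 1, 2 and 3 had weights of 0.24, 3.15 and 0.38. Its serrated means therefore rested mostly on replicate 2. The share of all genes called under each alternative was not counted, so these counts have no background beside them.

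Of 532 single differences recomputed for 36 results, 477 kept direction and side of the threshold, 14 lost a call, 23 gained 1 and 18 changed sign, all 18 in differences that were not called. Many directions were fixed in advance, so these counts do not measure stability. Trended robust variances, the filter on dim genes and averaged probe sets (a single one per family gene) cannot change a difference. Leaving out an array of a group outside the comparison cannot either, nor can fitting only the groups compared where single groups were compared. Sign changes for serrated against all AOM were Btc (-0.25) and Hbegf (-0.08) without serrated replicate 3 and Hbegf (-0.05) without serrated replicate 2, and the highest values with an array left out were 0.93 and 0.49. Against K-rasG12D AOM, Btc turned to 0.03 (quantile normalization), 0.02 (array weights), 0.14 (without K-rasG12D AOM replicate 2) and 0.54 (without serrated replicate 1), and Hbegf to 0.13 (array weights) and 0.11 (without serrated replicate 1), with lowest values of -0.64 and -0.47. Between the AOM groups Tgfa turned to -0.03 (median centring), -0.04 (array weights), and -0.01, -0.05 and -0.02 (without K-rasG12D AOM replicate 2 or 3 or LSL AOM replicate 2). Ereg turned to -0.14 (array weights) and -0.39 (without K-rasG12D AOM replicate 2), and Epgn to -0.07 and -0.04 (without K-rasG12D AOM replicate 3 or LSL AOM replicate 1), with highest values of 0.16, 0.61 and 0.25 for these 3 genes. The cause was not tested. Egf and Epgn fell under the filter on dim genes and have no value there.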
